A study of Daucus carota with 10 samples.

Results

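The comparison described here is that of 2 RNA-Seq libraries of carrot taproot xylem, group E, with 2 libraries of the whole root slice of the orange cultivar ‘H13.360IND’, group CT, over every locus of the deposited files. These 4 libraries were chosen by their labels, out of 10 in the series, which holds 5 groups of 2 biological replicates. All roots were harvested 120 days after sowing from greenhouse plants, and 10 taproots of a cultivar were mixed, so each library is a pool. CT held xylem, phloem and periderm together, whereas E held xylem alone. Cultivar, colour and tissue therefore change together between E and CT and cannot be told apart. The other groups, used only for levels and for tests beside the main one, were phloem F of the same cultivar as E, and xylem G and phloem H of the other purple cultivar.

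The sources disagree on what E is. The letters of the paper and of the deposited design make E and F ‘Purple 68’, a root purple in xylem and phloem, and G and H ‘Purple Haze’, which has orange xylem. The titles and sample fields of the libraries coded E give ‘Purple Haze’ and the colour orange. Every source gives xylem. CT is orange in the labels, and the methods also call the root yellow. The groups are therefore named by letter. CHS1, the first enzyme gene of the flavonoid branch, was at 4958 and 7154 FPKM in E, 6252 and 8503 in purple phloem H and 8.40 and 8.72 in orange CT, so its level goes against the field that calls E orange. The files pair no gene numbers with names, and the names and matches in the study’s lists hold few markers of a tissue. They hold a gene named after the phloem factor APL, given below, and 4 genes of cutin, suberin and wax, which can mark the periderm. These 4 summed to 4.84 and 3.50 FPKM in CT and 0.15 and 0.29 in E. Most of the CT sum came from LOC108224965, at 3.79 and 1.93 FPKM. That gene was at 4.47 and 9.23 FPKM in xylem G, so the sum does not mark periderm alone. Only that gene was tested, and its call was lost under quantile normalization. Xylem markers were not checked.

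Anthocyanins are red to purple flavonoid pigments stored in the vacuole. Phenylalanine is turned into coumaroyl-CoA by the enzymes PAL (phenylalanine ammonia-lyase), C4H (which hydroxylates cinnamate) and 4CL (a coumarate CoA ligase), a route shared with lignin. Chalcone synthase (CHS) and chalcone isomerase (CHI) then build the flavonoid skeleton, flavanone hydroxylases (F3H and F3′H) decorate it, and dihydroflavonol reductase (DFR) and leucoanthocyanidin dioxygenase (LDOX) make the coloured anthocyanidin. Sugars and acyl groups are added before a glutathione S-transferase (GST) helps to carry the pigment into the vacuole. MYB and bHLH transcription factors switch these genes on together. Orange carrot roots owe their colour to carotenoids instead.

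Primers made for RT-qPCR of 5 pathway genes are printed because they mark the transcripts on which the account below turns: an entry enzyme, the first enzyme of the flavonoid branch, a late enzyme and both MYB regulators. They run 5′ to 3′, with no base capitalised.
C4H1 forward, LOC108223289: gtggaggccaacggaaatg
C4H1 reverse, LOC108223289: cgtccgattgtgataccgaga
CHS1 forward, LOC108200622: gtttaggcggatgtgtgaaaaatcg
CHS1 reverse, LOC108200622: ctcctgtgtgcaaccaaccttc
DFR1 forward, LOC108224780: gttatcaagcctaccgtacaggg
DFR1 reverse, LOC108224780: catttctctcttatcaatttcacc
MYB6 forward, LOC108192278: ttagtggcatcctcaagtggttc
MYB6 reverse, LOC108192278: actccggccatcatctcctac
MYB7 forward, LOC108213488: tgaagttttgaagccccttcc
MYB7 reverse, LOC108213488: tgttgttaatgtcgttgccgc

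Values are FPKM, a fragment count divided by gene length and library size, so levels can be set side by side between genes. A library held 13909841 to 17118787 fragments, and 23229 to 25710 loci were detected in it. Differences are log2 fold changes of FPKM + 1, positive where E is higher, with the standard error (SE) from limma; they understate the change of genes near 0. Calls required an adjusted p (Benjamini-Hochberg) under 0.05 together with a log2 fold change of 1 or more in either direction. Replicates correlated with r = 0.97 in CT and r = 0.93 in E across 19400 genes, and genes are not independent of each other. On the log2 scale the replicates of E differed with an SD of 0.86, those of CT with an SD of 0.44.

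Of 19400 genes tested, 687 were higher in E, 3.54% of those tested, and 2258 were lower, 11.6%. The median log2 fold change over all tested genes was -0.49, so a gene at 0 on this scale already lies above the median. Quantile normalization, which gives every library the same distribution, took that median to -0.05 and the calls to 1235 higher (6.37%) and 1229 lower (6.34%). The share of calls that were higher in E thus went from 23.3% to 50.1%. Of the 687 genes higher in E, 667 were called higher under both scalings, and of the 2258 lower, 1164 were called lower under both. At 2 or more on the log2 scale there were 375 called rises and 1039 falls, at 4 or more 91 and 99, and at 6 or more 24 and 7.

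**Figure D1:**
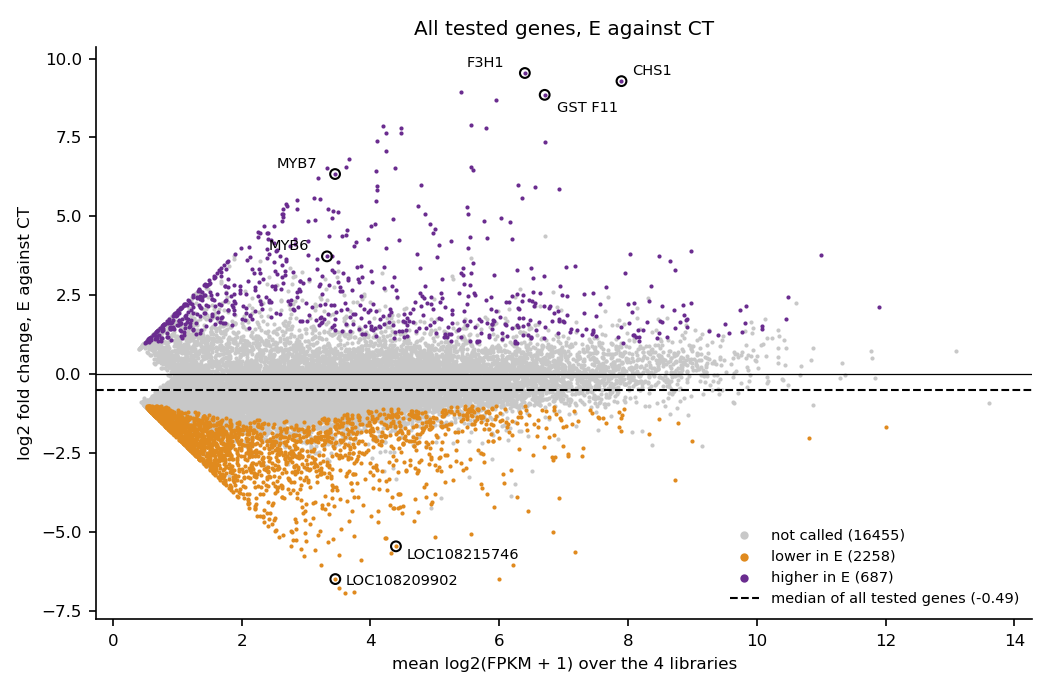
Log2 fold change between E and CT against the mean level over the 4 libraries, for the 19400 genes tested (1 point each, purple for the 687 called higher in E, orange for the 2258 called lower, grey for the rest). The dashed line is the median of all tested genes, -0.49, and the named anthocyanin genes CHS1, F3H1 and GST F11 lie between 8.85 and 9.54.

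The number of calls rested on the CT replicates. Without CT replicate 1 or without CT replicate 2, 0 genes were called by limma, with 3411 and 3434 genes at an unadjusted p below 0.05 and lowest adjusted p-values of 0.050 and 0.060. Of the genes named as called in the text, 11 lost their call without E replicate 2, with adjusted p-values of 0.053 to 0.107 and log2 fold changes of 1.27 to 4.94 in size: PAL4, 4CL3, LOC108205231, LOC108223993, LOC108206025, LOC108211967, LOC108220105, LOC108216446, LOC108196652, LOC108227515 and LOC108198802. Without E replicate 1, LOC108220105 and LOC108216446 lost theirs as well. Over all genes, without E replicate 1, 1276 were higher and 6798 lower, and without E replicate 2, 1041 were higher and 2125 lower. The second E library had a median of 5.37 FPKM over the tested genes, the first 8.52, and the CT libraries 10.5 and 10.6. The part of this difference in the calls was not tested beyond the quantile scaling.

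**Figure D2:**
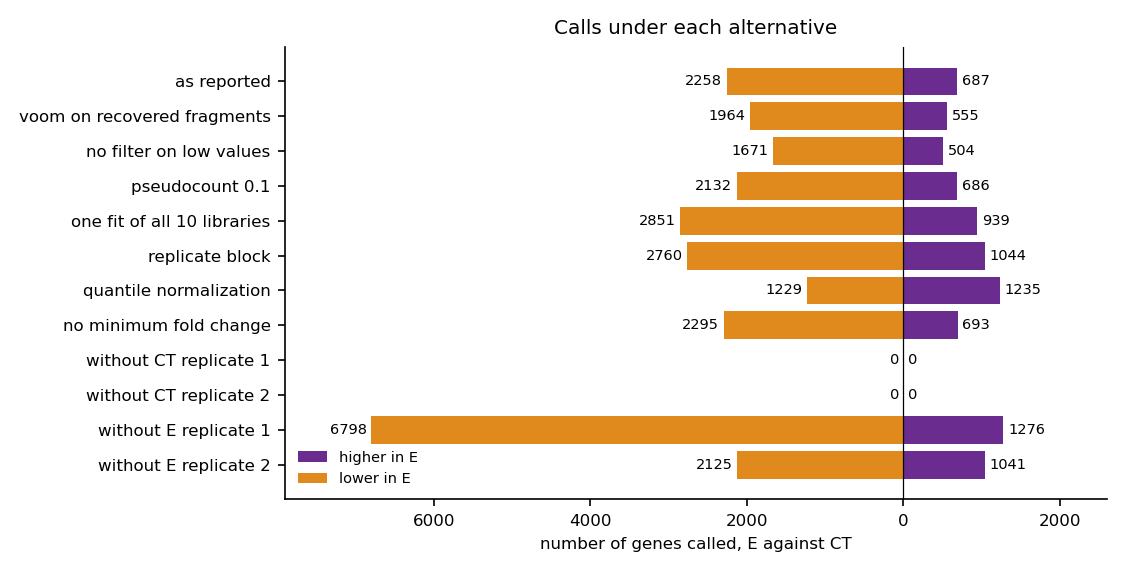
Number of genes called higher in E (purple, to the right) and lower in E (orange, to the left) as reported and under each alternative. The bars run from 0 calls without either CT replicate to 6798 lower without E replicate 1, and quantile normalization gave 1235 and 1229.

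The genes of the anthocyanin pathway held the largest rises of the comparison. The study’s supplementary list, as read here, holds 21 structural genes from PAL to glucosyltransferases, chosen on a set of libraries that included E, so the list is not independent of these values. Of the 17 tested, 10 were higher in E and 3 lower, with a median log2 fold change of 3.81, against -0.49 over all tested genes. The 10 that were higher form an unbroken route from PAL to LDOX. Together they took 1.74% and 2.02% of the fragments in the E libraries and 0.016% and 0.027% in CT. In such bulk samples, more cells that express a gene and more RNA of it per cell cannot be told apart.

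At the entry to the pathway, PAL4 (LOC108223317), which deaminates phenylalanine, stood at 6.15 and 18.2 FPKM in the CT libraries and 308 and 432 in E. The difference was 4.96 ± 0.52 (SE), with an adjusted p of 0.015. C4H1 stood at 53.9 and 88.0 FPKM in CT and 965 and 992 in E, a log2 fold change of 3.81 ± 0.30 (SE). The ligase 4CL3 (LOC108227923) stood at 13.6 and 24.7 FPKM in CT and 98.4 and 117 in E, a log2 fold change of 2.49 ± 0.34 (SE). The E libraries lay above both CT libraries in each case, with the largest log2 fold change at PAL4 and the smallest at 4CL3; the difference between genes was not tested. The calls of PAL4 and of 4CL3 were lost without E replicate 2, where their log2 fold changes were 4.72 and 2.36.

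From CHS to LDOX the genes that were higher in E stood below 9 FPKM in both CT libraries. CHS1 (start 29683846, end 29685950, minus strand) stood at 8.40 and 8.72 FPKM in CT, from 162 and 207 fragments, and at 4958 and 7154 FPKM in E. It ranked number 5 of all loci in both E libraries. The exact 95% Poisson intervals of its CT values, which cover counting error only, were 7.16 to 9.80 and 7.58 to 9.997 FPKM. The log2 fold change was 9.28 ± 0.26 (SE) with an adjusted p of 0.0024, and the mean of E was 707 times that of CT. The other chalcone synthase genes did not move with it: CHS2 (LOC108192262) was at 0.48 and 0.13 FPKM in CT and 0.13 and 0 in E and failed the filter on low values, and the CHS9-like gene LOC108212629 was at 1.72 and 2.09 and 0.24 and 1.17 FPKM.

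Both isomerase genes rose. CHI1 (LOC108220831) went from 1.76 and 2.36 FPKM in CT to 1488 and 1046 in E, a log2 fold change of 8.68 ± 0.27 (SE). The second gene, LOC108197475, went from 2.79 and 2.63 FPKM to 1050.3 and 651, a log2 fold change of 7.80 ± 0.30 (SE). F3H1 (LOC108213382), which hydroxylates the flavanone, showed the largest log2 fold change of all tested genes, 9.54 ± 0.26 (SE). It stood at 2.58 and 1.66 FPKM in CT and 2057 and 2573 in E. F3′H (LOC108216209), the enzyme that adds the second hydroxyl of the cyanidin ring, went from 0.82 and 0.85 FPKM to 149 and 166, a log2 fold change of 6.43 ± 0.26 (SE). In all 4 genes the lowest E value was more than 100 times the highest CT value.

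Of the late enzymes, DFR1 stood at 1.84 and 2.31 FPKM in CT and 935 and 566 in E, a log2 fold change of 7.89 ± 0.32 (SE). LDOX1 (LOC108209615) stood at 0.45 and 0.53 FPKM in CT, from 9 and 13 fragments, and 368 and 296 in E, a log2 fold change of 7.79 ± 0.26 (SE). The 3 structural genes that were lower in E carry related names. LOC108224131, named a putative DFR, went from 22.1 and 23.2 FPKM in CT to 0.61 and 0.58 in E, a log2 fold change of -3.89 ± 0.33 (SE). Its Arabidopsis match is AT4G33360, whereas DFR1 matches AT5G42800, so its name and its match differ. LOC108224331, DFR-like, went from 21.4 and 14.6 FPKM to 0.25 and 0.48, a log2 fold change of -3.78 ± 0.38 (SE). The 4CL-like gene LOC108223993 went from 8.00 and 6.20 FPKM to 1.56 and 1.14, and its call was lost under quantile normalization (adjusted p = 0.091, log2 fold change -1.08).

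The genes for decorating and moving the pigment divided by name. None of the 3 genes named anthocyanidin 3-O-glucosyltransferase was called: LOC108210672 was at 2.10 and 1.74 FPKM in CT and 2.13 and 2.83 in E, LOC108214313 was near 0 in all 4 libraries, and LOC108220258 was at 16.1 and 9.24 and 3.50 and 38.0 FPKM. LOC108213096, which the study's pathway lists match to the Arabidopsis flavonoid glucosyltransferase UGT78D2 (AT5G17050), was at 0.66 and 1.24 FPKM in CT and 894 and 987 in E, a log2 fold change of 8.93 ± 0.25 (SE). SCPL1 (LOC108214129), a serine carboxypeptidase-like gene the study treats as a candidate acyltransferase, went from 0.26 and 0.14 FPKM to 185 and 96.2, a log2 fold change of 6.81 ± 0.41 (SE). Of 8 GST genes named by the study, 7 were tested, 1 was higher in E and 2 lower (3 and 2 under quantile normalization). Among all tested genes 3.54% were higher and 11.6% lower in the main test. The one that was higher in the main test, GST F11 (LOC108205254), went from 4.07 and 3.66 FPKM in CT to 2146 and 2339 in E, a log2 fold change of 8.85 ± 0.20 (SE). The matching Arabidopsis gene, AT3G03190, is of the same class as the GST known there for anthocyanin transport. The U17-like gene LOC108195220 and the U8 gene LOC108195352 were lower, by -2.19 and -1.87 on the log2 scale.

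**Figure D3:**
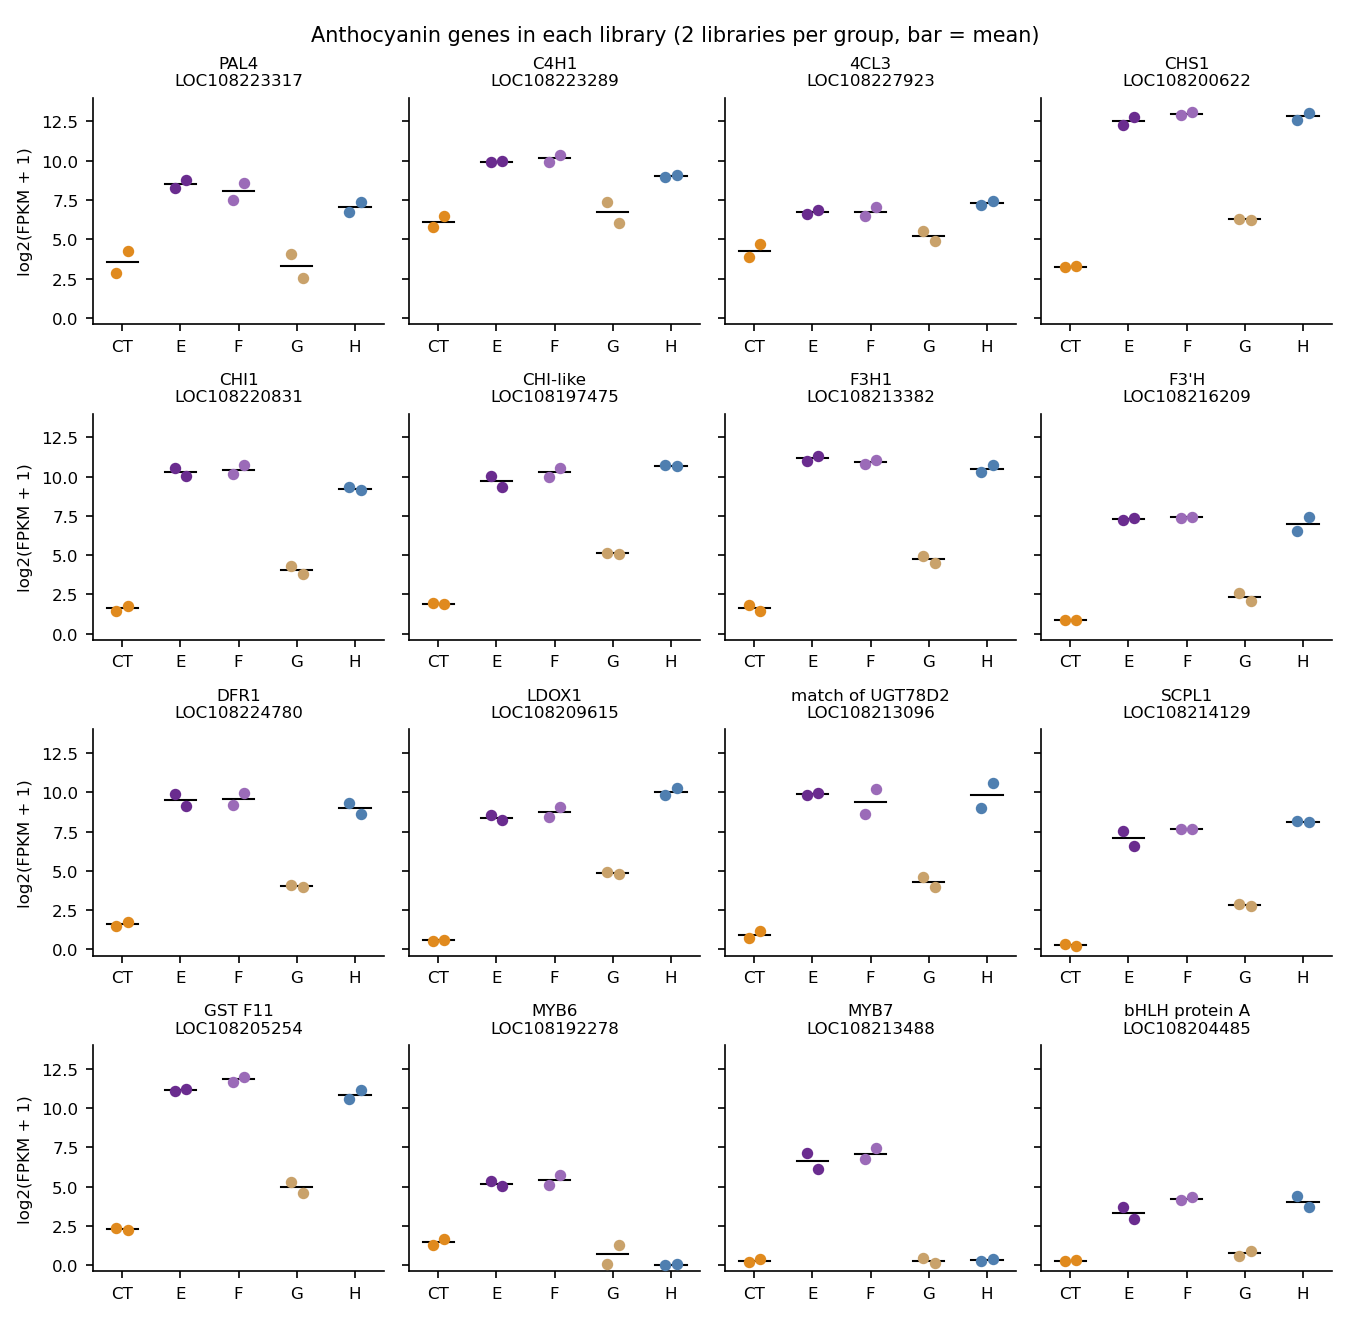
Levels of 16 anthocyanin genes as log2(FPKM + 1) in each library, with 1 panel per gene, 2 points per group and a bar at their mean. The E points lie above the CT points in every panel, CHS1 is at 4958 and 7154 FPKM in E, and MYB6 and MYB7 are high in E and F but near 0 in H.

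Among the regulators, 2 MYB genes of the MYB113-like type, a type that activates anthocyanin genes in Arabidopsis, were higher in E. MYB7 stood at 0.13 and 0.31 FPKM in CT, from 2 and 6 fragments, and at 139 and 68.4 in E, a log2 fold change of 6.34 ± 0.44 (SE) with an adjusted p of 0.0093. MYB6 stood at 1.42 and 2.11 FPKM in CT and 40.1 and 31.5 in E, a log2 fold change of 3.73 ± 0.34 (SE). MYB6 was thus the only one of these genes, MYB7 and bHLH protein A, that was above 1 FPKM in both CT libraries. LOC108204485, named basic helix-loop-helix protein A, went from 0.20 and 0.23 FPKM to 11.9 and 6.55, a log2 fold change of 3.02 ± 0.40 (SE).

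The rest of the transcription factor lists went both ways. Of the 16 tested of 18 MYB genes, 4 were higher in E and 6 lower, with a median of -0.83, and of the 19 tested of 20 bHLH genes 1 was higher and 3 lower. Over all tested genes 3.54% were higher and 11.6% lower, so the bHLH counts of the main test lay near these shares. Under quantile normalization the MYB counts were 4 and 5 and the bHLH counts 4 and 2. The other MYB genes that were higher were MYB3-like LOC108208100, at 0.063 and 0.20 FPKM in CT and 3.44 and 1.98 in E, and MYB36-like LOC108221189, at 0.20 and 0.11 and 4.94 and 4.78. The largest fall was that of Myb4-like LOC108220609, from 22.2 and 15.7 FPKM to 0.85 and 0.52; Arabidopsis MYB4 is a repressor of phenylpropanoid genes. Myb330-like LOC108215616 was at 6.89 and 4.22 FPKM in CT and had no fragment in either E library, at least 36.0-fold lower against a floor of 3 fragments per library. The gene named after APL, a phloem identity factor in Arabidopsis (LOC108225351), was at 1.27 and 1.70 FPKM in CT and 0 and 0.040 in E. Its call was lost under quantile normalization (adjusted p = 0.105), and it was at 4.87 and 5.83 FPKM in the other xylem, G. The bHLH genes that were lower were the bHLH90-like LOC108206705, the bHLH94-like LOC108225516 and the bHLH30-like LOC108206025, by -2.17, -2.49 and -2.13 on the log2 scale. The call of LOC108206025 was lost under quantile normalization (adjusted p = 0.072).

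The levels in the other groups place these values. CHS1 was at 7591 and 8899 FPKM in phloem F, 6252 and 8503 in phloem H and 78.9 and 74.8 in xylem G, so G lay between CT and the other groups. The same order held for F3H1, at 30.3 and 21.5 FPKM in G, and for GST F11, at 38.3 and 23.5. MYB7 differed: it was at 105 and 172 FPKM in F but at 0.35 and 0.11 in G and 0.17 and 0.34 in H, levels like those of CT. MYB6 was at 33.8 and 53.2 FPKM in F, 0.057 and 1.46 in G and 0 and 0.055 in H, below CT in H. Between the xylems E and G, which share no CT library, 306 of 18924 genes were higher in E (1.62%) and 1007 lower (5.32%). All 10 structural genes higher in E than in CT were also higher in E than in G, by 1.53 (4CL3) to 6.44 (F3H1) on the log2 scale. So were LOC108213096, SCPL1, GST F11, MYB6, MYB7 and bHLH protein A, by 2.56 to 6.33. Between E and F, 10 of 18293 genes were higher in E (0.0547%) and 58 lower (0.317%), and none of these 16 genes was among them. The E libraries enter all 3 comparisons.

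The contrasts F against H and G against H, without any E or CT library, were set beside the calls. Phloem F against phloem H compares the cultivars within a tissue, and 99 of 18671 genes were higher in F (0.53%) and 164 lower (0.878%). Among the genes higher in E than in CT, 645 were tested there, 7.13% were higher in F and 0.465% lower, with a median log2 fold change of 0.76 against 0.11 over all genes. Among those lower in E, 1771 were tested, 0.282% were higher in F and 4.40% lower, with a median of -0.41. Xylem G against phloem H compares the tissues within the other cultivar, orange xylem with purple phloem by the paper’s letters, and 189 of 18724 genes were higher in G (1.01%) and 132 lower (0.705%). Of the genes higher in E than in CT, 552 were tested there, 2.17% were higher in G and 6.88% lower, with a median of -0.09 against 0.22 over all genes. Of those lower in E, 1962 were tested, 4.33% were higher in G and 1.78% lower, with a median of 0.34. The genes that set E apart from CT were thus called more often than all tested genes in both contrasts. In F against H the calls in the direction of E outnumbered those in the other direction. In G against H, where xylem is the first group, the calls in the other direction outnumbered them. Tissue and colour change together in that contrast. The second H library was low, like the second E library, with medians over detected loci of 2.98 and 3.12 FPKM. In the first libraries these medians were 4.49 FPKM in H and 5.04 in E. The part of this difference in either contrast was not tested.

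The phenylpropanoid pathway, which leads from phenylalanine to lignin and to ferulic and sinapic acid esters, moved in both directions. The study lists 43 genes of it, from its own calls between E, F, G and H, and of the 36 tested here 12 were higher in E and 11 lower, with a median of -0.57. Under quantile normalization 12 were higher and 7 lower. In the main test 3.54% of all tested genes were higher and 11.6% lower. The members that were higher include matches of enzymes that hydroxylate and methylate the phenolic ring and of one that reduces the side chain, and they are named with their Arabidopsis matches. LOC108227431, which matches coumaroyl shikimate hydroxylase (AT2G40890), went from 7.75 and 11.2 FPKM in CT to 201 and 222 in E. LOC108194156, which matches caffeoyl shikimate esterase (AT1G52760), went from 0.68 and 0.88 FPKM to 53.1 and 73.9. The methyltransferase gene LOC108207577 (match of AT4G34050, CCoAOMT) went from 12.3 and 18.3 to 904 and 956 FPKM. Log2 fold changes of these 3 genes were 4.36, 5.16 and 5.86.

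LOC108225223, which matches ferulate 5-hydroxylase (AT4G36220), an enzyme on the way to sinapic acid, was at 0.43 and 0.24 FPKM in CT and 146 and 332 in E, a log2 fold change of 7.38 ± 0.46 (SE). LOC108227809, which matches cinnamoyl-CoA reductase (AT1G15950), went from 6.04 and 8.61 FPKM to 1586 and 1124, a log2 fold change of 7.34 ± 0.29 (SE). LOC108215217 matches AT3G24503, the aldehyde dehydrogenase that makes ferulic and sinapic acid in Arabidopsis, and went from 9.28 and 8.88 FPKM to 454 and 187. Other genes with the same match did not follow it: LOC108205596 and LOC108215465 were both called lower. The β-glucosidase match LOC108210826 was at 0.23 and 0.47 FPKM in CT and 515 and 137 in E, a log2 fold change of 7.63 ± 0.66 (SE), with E libraries that differed by more than 3 times. The match of the shikimate transferase HCT (LOC108223132) was not called, at 21.3 and 31.4 FPKM in CT and 19.7 and 17.1 in E.

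Falls in the same list were led by class III peroxidases, enzymes that oxidise phenolics in the cell wall. LOC108215746 (match of AT1G71695) went from 131 and 146 FPKM in CT to 1.88 and 2.52 in E, a log2 fold change of -5.45 ± 0.26 (SE). LOC108220388 (match of AT5G66390) went from 47.3 and 41.1 FPKM to 0.45 and 0.32, a log2 fold change of -5.03 ± 0.33 (SE). The first of these was at 437 and 249.9 FPKM in phloem F and 425 and 474 in phloem H, above CT. It was the other xylem, G, at 63.1 and 12.9 FPKM, that lay between CT and E.

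Upstream of PAL, the shikimate route supplies phenylalanine. Of 6 genes tested in the list for phenylalanine, tyrosine and tryptophan, 3 were higher in E and 1 lower. The shares over all tested genes were 3.54% higher and 11.6% lower. LOC108210565, a match of arogenate dehydratase (AT1G08250), the last step to phenylalanine in plants, went from 2.89 and 3.53 FPKM in CT to 141 and 202 in E, a log2 fold change of 5.34 ± 0.29 (SE). LOC108209808, a match of EPSP synthase (AT2G45300), went from 39.4 and 44.7 FPKM to 202 and 209.8, a log2 fold change of 2.27 ± 0.20 (SE). The chorismate mutase matches split: LOC108196652 (AT3G29200, the plastid enzyme) went from 1.03 and 2.04 FPKM to 8.22 and 14.7, and LOC108224600 (AT5G10870, the cytosolic enzyme) from 69.0 and 45.4 down to 3.02 and 4.56. In the list for cysteine and methionine, which feeds the methyl donor S-adenosylmethionine, 5 of 15 tested genes were higher and 5 lower (5 and 3 under quantile normalization). LOC108199615, a match of S-adenosylmethionine decarboxylase (AT3G25570), which draws on that donor for polyamines, fell from 371 and 409 FPKM to 25.8 and 12.9, a log2 fold change of -4.34 ± 0.36 (SE). Methionine synthase (LOC108227519, match of AT5G17920) rose from 82.5 and 83.0 FPKM to 212 and 243.

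**Figure D4:**
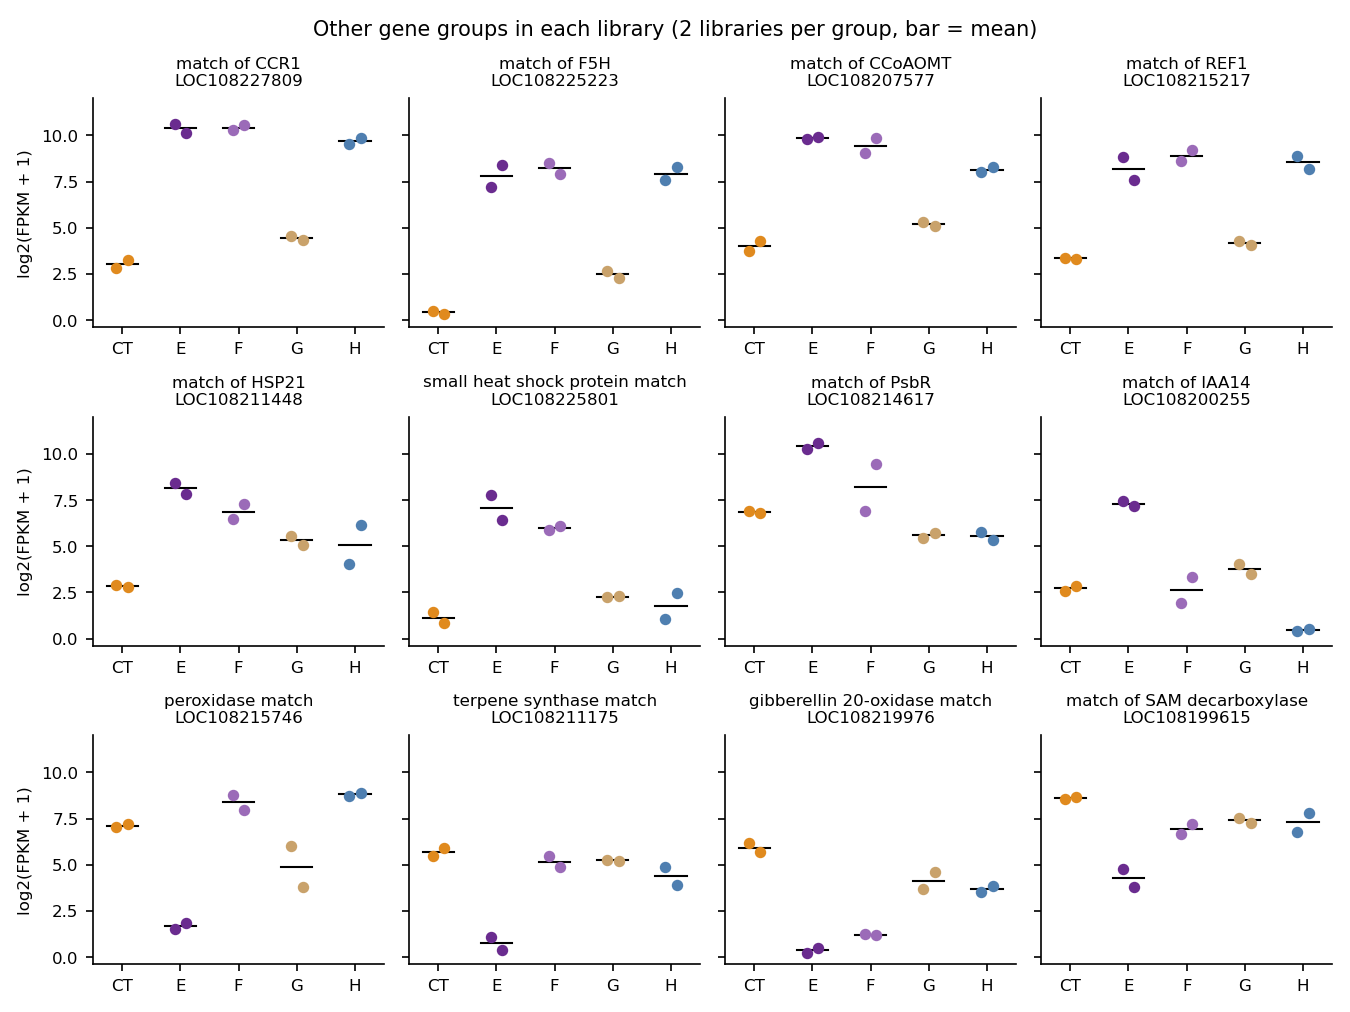
Levels of 12 genes of other groups as log2(FPKM + 1) in each library, with 1 panel per gene, 2 points per group and a bar at their mean. The 8 genes of the first 2 rows are higher in E than in CT, the 4 of the last row lower, and the IAA14 match is high in E alone, at 172 and 142 FPKM.

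Of the study's list for protein processing in the endoplasmic reticulum, 20 of 22 genes were tested, 9 were higher in E and 3 lower (12 and 3 under quantile normalization). Among all tested genes 3.54% were higher and 11.6% lower in the main test. The list holds 11 matches of Arabidopsis small heat shock proteins, chaperones that hold unfolded proteins, a group picked after the values were seen. Of these, 10 were tested, 7 were higher in E, 0 lower and 3 not called. The 3 were LOC108225374 (AT5G12030) with an adjusted p of 0.051, LOC108208113 (AT5G12020) with 0.080 and LOC108211582 (AT3G46230) with 0.693, all from limma. LOC108225801, a match of the class I small heat shock protein AT5G59720, went from 1.66 and 0.78 FPKM in CT to 214 and 84.5 in E, a log2 fold change of 5.96 ± 0.53 (SE). LOC108211448 and LOC108193767 both match HSP21 (AT4G27670), the small heat shock protein of the chloroplast. They went from 6.40 and 6.02 to 346 and 228 FPKM and from 19.2 and 7.94 to 311 and 472. LOC108193767 was also higher in E than in phloem F, where it was at 64.6 and 57.0 FPKM. By contrast, LOC108225801 and LOC108211448, at 56.8 and 68.5 and at 87.3 and 155 FPKM in F, were not called between E and F. Neither were LOC108192288, LOC108202086 and LOC108213227, which were also higher in E than in CT. Larger chaperones of the list went both ways. LOC108227515, a match of HSP90 gene AT5G52640, rose from 14.9 and 9.46 FPKM to 47.0 and 39.2, while LOC108218630, a match of HSP70 gene AT3G12580, fell from 179 and 167 to 16.2 and 13.5.

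Some transcripts for photosystem II proteins were abundant in xylem E. Of 5 photosynthesis genes tested, 3 were higher in E and 0 lower, beside 3.54% higher and 11.6% lower over all tested genes. LOC108214617, a match of PsbR (AT1G79040), went from 119 and 111 FPKM in CT to 1221 and 1558 in E, a log2 fold change of 3.57 ± 0.23 (SE), and LOC108216708, with the same match, from 39.9 and 46.5 to 219.7 and 175. LOC108205285, a match of the PsbQ gene AT4G05180, went from 119 and 127 FPKM to 795 and 945. In xylem G, LOC108214617 was at 43.2 and 51.4 FPKM, and it was higher in E than in G by 4.84 on the log2 scale. LOC108216708, at 53.0 and 57.2 FPKM in G, and LOC108205285, at 264 and 260, were higher in E by 1.81 and 1.72. The other 2 members were not called: LOC108222802 (AT2G30570, PsbW) was at 459 and 421 FPKM in CT and 653 and 178 in E, and the ferredoxin match LOC108200781 at 1.07 and 9.88 and 1.17 and 1.30. The PsbW match was at 1342 and 1434 FPKM in xylem G, above both E libraries. Of 7 genes tested in oxidative phosphorylation, 5 were higher and 0 lower, led by LOC108216725, a match of a complex I subunit (AT5G67590), from 14.3 and 14.8 to 130.2 and 153 FPKM.

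Most listed genes of DNA replication were lower in E, beside 11.6% lower and 3.54% higher over all tested genes. Of the 9 in the study's list, all tested, 8 were lower and 1 higher, and the median was -2.25 against -0.49 over all tested genes (7 lower and 1 higher under quantile normalization). Matches of 5 subunits of the MCM helicase, which opens DNA for copying, were among them. LOC108200094 (MCM2, AT1G44900) was at 5.12 and 6.02 FPKM in CT and 0.29 and 0.038 in E. LOC108209878 (MCM7, AT4G02060) was at 6.24 and 5.68 and 0.41 and 0.23 FPKM, and the matches of MCM3, MCM5 and MCM6 (LOC108197264, LOC108216116 and LOC108217507) had log2 fold changes of -2.25, -2.33 and -2.24. In xylem G the MCM2 match was at 2.11 and 3.02 FPKM, above both E libraries and below CT. In phloem F it was at 1.22 and 1.59 FPKM and in phloem H at 0.58 and 0.31, also below CT. It was not called between E and F. The member that was higher, LOC108192512 (match of AT1G52950, a replication protein A-like gene), had no fragment in CT and was at 3.32 and 3.28 FPKM in E, at least 17.5-fold higher against a floor of 3 fragments per library. The D-type cyclin matches LOC108225757 (AT5G67260) and LOC108218703 (AT4G34160), which drive entry into the cell cycle, went from 10.3 and 11.4 to 0.95 and 0.45 and from 2.73 and 2.18 to 0.10 and 0.11 FPKM. The call of the second was lost under quantile normalization (adjusted p = 0.074).

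The cyclins are part of the list for hormone signalling, of which 34 genes were tested, 6 were higher in E and 13 lower (9 and 9 under quantile normalization). The shares over all tested genes were 3.54% higher and 11.6% lower in the main test. Aux/IAA genes, repressors of the auxin response, took both directions. LOC108200255, a match of IAA14 (AT4G14550), rose from 4.94 and 6.25 FPKM in CT to 172 and 142 in E, a log2 fold change of 4.58 ± 0.25 (SE), and was higher in E than in F as well, with 2.81 and 8.97 FPKM there. LOC108204025, a match of IAA4 (AT5G43700), fell from 11.9 and 6.53 FPKM to 0.055 and 0.058, while LOC108226394, with the same match, was at 1.11 and 0.90 in CT and 16.4 and 6.29 in E. LOC108226581, a match of the jasmonate repressor JAZ1 (AT1G19180), rose from 6.81 and 4.69 FPKM to 119 and 184. Its level was 174 and 196 FPKM in F, 10.3 and 0 in H and 0.29 and 0.49 in G. The matches of ABI5 (LOC108213288, AT2G36270) and ERF1 (LOC108198802, AT3G23240), which act in abscisic acid and ethylene responses, were higher in E by 2.48 and 2.67 on the log2 scale.

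Gibberellin genes make up most of the diterpenoid list, of which 7 genes were tested, 5 were lower in E and 0 higher (4 and 1 under quantile normalization). The main test called 11.6% of all tested genes lower and 3.54% higher. The genes that fell include enzymes that make the hormone and enzymes that remove it. LOC108219976, a match of a GA20ox gene (AT5G51810), which makes precursors of active gibberellin, went from 71.7 and 49.7 FPKM in CT to 0.17 and 0.40 in E, a log2 fold change of -5.57 ± 0.36 (SE). LOC108225584 and LOC108195451, matches of GA2ox genes (AT1G78440 and AT1G02400), which inactivate gibberellin, were at 4.44 and 5.79 and at 6.88 and 9.22 FPKM in CT and had no fragment in either E library. They were at least 32.8-fold and 41.2-fold lower against the floor. A second GA20ox match, LOC108211967, kept its direction but lost its call under quantile normalization (adjusted p = 0.183).

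Terpene synthases make volatile aroma compounds of the root. In the monoterpenoid list 4 of 5 tested genes were lower in E and 0 higher, and in the sesquiterpenoid and triterpenoid list 3 of 5 were lower and 0 higher, of which 1 is LOC108224131, the putative DFR given above. Among all tested genes 11.6% were lower and 3.54% higher. LOC108211175, a match of AT2G24210, went from 44.1 and 59.1 FPKM in CT to 1.12 and 0.32 in E, a log2 fold change of -4.96 ± 0.40 (SE). It was at 37.6 and 35.4 FPKM in xylem G and 43.2 and 28.2 in phloem F, so E stood apart from its own cultivar's phloem as well, where the test against E passed. LOC108205231 and LOC108192917, matches of the caryophyllene synthase of Arabidopsis (AT5G23960), went from 58.8 and 15.8 to 0.031 and 0.065 and from 19.9 and 35.6 to 0.19 and 0.17 FPKM. A further match of the same gene, LOC108206779, was not called, at 4.45 and 0.61 FPKM in CT and 0 and 0.069 in E (adjusted p = 0.159, limma). In phloem F, LOC108205231 was at 0.068 and 0.093 FPKM, near its E level. LOC108192917, at 3.64 and 1.80 FPKM in F, was not called between E and F. Under quantile normalization 2 of the 4 monoterpenoid calls were lost, LOC108220105 and LOC108216446. In the list for limonene and pinene degradation, which holds cytochrome P450 genes, 5 of 8 were lower, led by LOC108197340 (match of AT1G13710) from 91.3 and 82.4 to 1.68 and 3.48 FPKM.

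Of the carotenoid genes, 5 were listed and tested. Only LOC108220121, a match of the epoxycarotenoid dioxygenase gene NCED5 (AT1G30100), which cleaves carotenoids towards abscisic acid, was called, from 10.7 and 7.55 FPKM in CT to 0.89 and 0.95 in E. Matches of NCED3, LOC108220601 and LOC108216136, were at 14.5 and 33.6 and 13.6 and 21.1 FPKM in CT and 11.5 and 19.0 and 10.9 and 31.1 in E. The study's list holds no gene for the enzymes that build carotenes, so these were not looked at here. In the starch and sucrose list 2 of 18 tested genes were higher and 9 lower (2 and 6 under quantile normalization). Over all tested genes the shares were 3.54% higher and 11.6% lower. LOC108210017, a match of the plastid β-amylase that breaks down starch (AT4G17090), went from 192 and 206 FPKM to 20.2 and 22.1, a log2 fold change of -3.17 ± 0.20 (SE). LOC108202090, a match of sucrose synthase (AT4G02280), went from 22.8 and 37.3 FPKM to 1.61 and 0.40. Of 7 ribosome genes tested, 5 were lower (3 lower and 1 higher under quantile normalization), among them LOC108209902 (match of AT3G23390), from 115 and 91.9 FPKM to 0.21 and 0.11, the largest fall of any gene with a match. It was at 0.11 and 0.21 FPKM in F, 257 and 169 in G and 175 and 297 in H, low in both tissues of E's cultivar and high in the others.

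**Figure D5:**
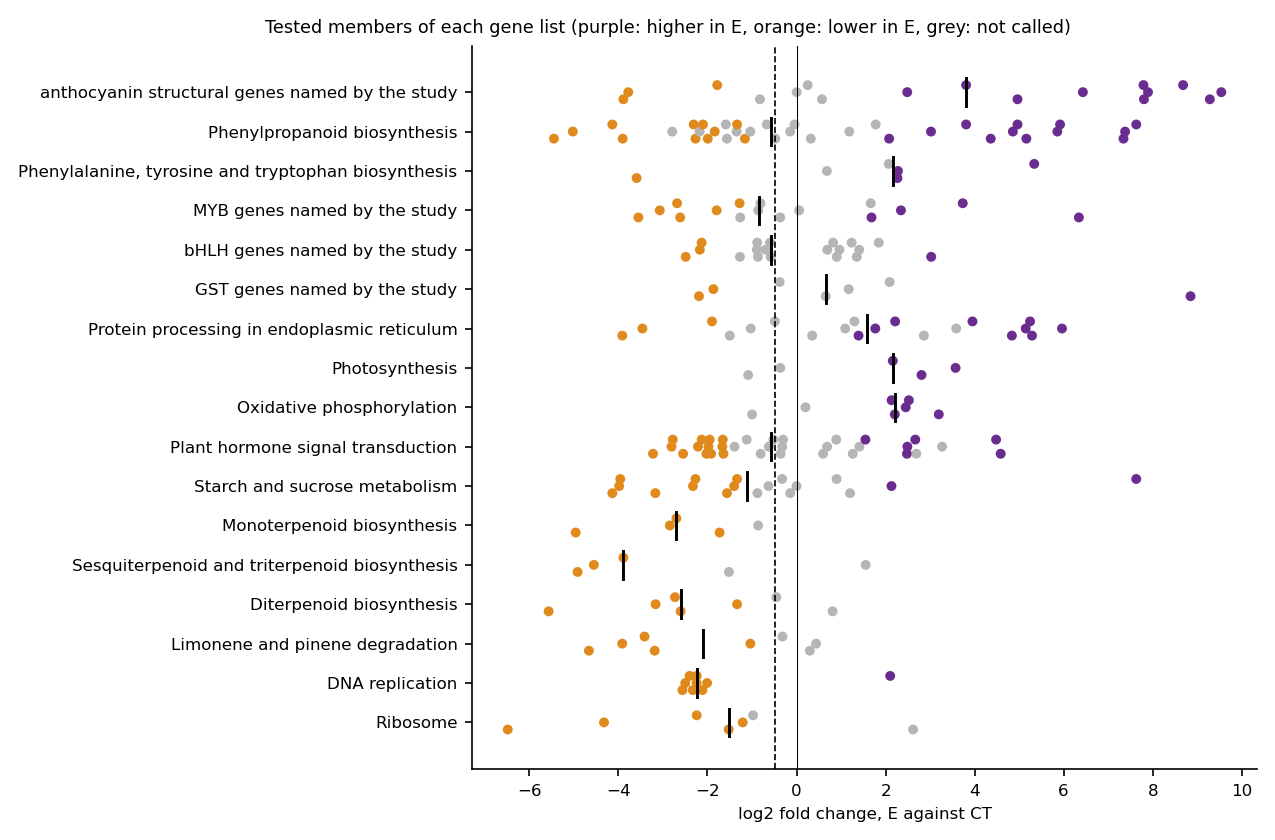
Log2 fold change between E and CT of every tested member of 17 gene lists, with 1 point per gene (purple for called higher in E, orange for lower, grey for not called) and a black bar at the median of the list. The dashed line is the median of all tested genes, -0.49; the bar of the anthocyanin structural genes is at 3.81 and that of DNA replication at -2.25.

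All these lists come from the study's own calls between E, F, G and H, some of which used the E libraries. Genes that the study listed for E against F or E against G were set aside, so the choice that follows still used the E libraries. Left were the pathway genes listed only for F against H or G against H. Of these 113 genes, 99 were tested, 12 were higher in E and 16 lower, or 12.1% and 16.2%, and the median was 0.04. Over all tested genes the shares were 3.54% and 11.6%.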

How the data were processed

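Taproot RNA was sequenced as paired ends. The authors mapped the reads to the carrot genome and deposited FPKM per locus and library, beside a gene length; the submitters' processing notes name TopHat2 2.0.12, Bowtie2 2.2.3 and HTSeq 0.6.1. The genome build is not given in the sources used here. Each file listed 36908 loci, 36089 annotated. Groups followed the sample labels. The authors tested counts with DESeq 1.18.0. Since the files hold FPKM, log2(FPKM + 1) was fitted with limma 3.58.1 (R 4.3.3, trend), with the 4 libraries compared only and genes that reached a mean of 1 FPKM in E or CT. P-values rest on the spread between 2 pooled libraries in each group, drawn towards a trend fitted over all genes. Fragments were recovered from FPKM steps: 75.4% of 30180 detected loci were whole within 0.02 at the length given, and for 7421 another length was found. Tests were tested on simulated data.

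Lists and names came from the study's supplementary lists (68 named genes, 417 with Arabidopsis matches; 464 in all, 406 tested). In the copy read each pathway’s genes stand a line above its name and were read so. Product-name lists and cell type markers that had been planned could not be applied: 32534 loci matched RefSeq gene numbers (assembly DH1 v3.0), none with a product name, so no RefSeq coordinates or sequences are printed. Members and lists were chosen with earlier results of these data known. Genes were named by rule: the 8 largest rises and falls with a name or match, the structural genes, SCPL1, MYB6, MYB7, bHLH protein A and GST F11, for each list the called members with the largest rise and fall (every one where at most 5 were called), the 3 most abundant calls of each side, and 2 rises and 2 falls without a name; not every gene so chosen is printed. Other names were chosen after their values were seen. Alternatives were voom, no filter, a pseudocount of 0.1, one fit of 10 libraries, replicate number as block, quantile normalization, no minimum fold change and each library left out. Reads, RT-qPCR and pigment values were not used here, and 1 phenylpropanoid gene is not reported here. Other software was pandas 2.3.3 with SciPy 1.17.1 (Python 3.11.15) and, for plots, matplotlib 3.10.9.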

Additional observations from a re-analysis of the deposited data

How the results depend on the processing

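No called gene changed its direction under any alternative. The counts of all calls stayed within 1.5 times the reported 2945 with voom on recovered fragments (2519), without the filter on low values (2175 of 28176 genes tested), with a pseudocount of 0.1 (2818), in one fit of all 10 libraries (3790), with the replicate block (3804), with quantile normalization (2464) and with no minimum fold change (2988). By direction, the replicate block gave 1044 genes higher in E and quantile normalization 1235 higher and 1229 lower. Leaving out 1 library gave 0 to 8074 calls, 0 to 1276 of them higher and 0 to 6798 lower; the fit then assumes that the lone library varies like the other group, and E varied more than CT. The replicate numbers do not pair E with CT: their replicate differences correlated at -0.08, so the block is not read as a pairing. For E against G, E against F, G against H and F against H, the reported 1313, 68, 321 and 263 calls became 122, 13, 44 and 7 without the filter, 2938, 879, 1453 and 1259 in one fit of all 10 libraries, and 1373, 582, 652 and 991 with the replicate block. Their replicate differences correlated at -0.41, -0.29, -0.56 and -0.10, and with the numbers crossed, an alternative chosen after seeing the data, 3272, 566, 3095 and 1241 were called. The cause was not tested.

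With 2 libraries per group the spread of each gene is poorly known and no library can be tested against its group. Genes with the same match or name, such as the HSP21, PsbR and MYB113-like genes, were not compared in sequence, and how the counting treated fragments that fit more than 1 gene is not known. Levels under 3 fragments per library cannot be told from 0.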

Other observations

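Other lists of the study also held called genes, beside 3.54% higher and 11.6% lower over all tested genes. In the list for carbon metabolism 7 of 22 tested genes were higher in E and 1 lower. LOC108196248, a match of pyruvate phosphate dikinase in Arabidopsis (AT4G15530), was at 5.08 and 3.50 FPKM in CT and 52.3 and 19.5 in E, and LOC108200579, a match of a cysteine synthase (AT4G14880), went from 2.86 and 4.03 to 62.6 and 34.5 FPKM. Of 7 nitrogen genes tested, 1 was higher and 3 lower. The nitrite reductase match LOC108202728 (AT2G15620) rose from 159 and 191 FPKM to 462 and 455. A cytosolic glutamine synthetase match, LOC108214740 (AT5G37600), was at 4.19 and 5.06 FPKM in CT and 0.048 and 0.050 in E, and a glutamate dehydrogenase match, LOC108192862 (AT5G18170), fell from 6.36 and 9.06 to 0.40 and 0.55 FPKM. LOC108196627, a match of the aminotransferase AT3G08860, was among the most abundant rises, from 168 and 183 to 730.5 and 833 FPKM. Of 9 genes tested in fatty acid metabolism 2 were higher and 4 lower, and of 7 in glycerolipid metabolism 1 was higher and 4 lower. LOC108218743, a match of the oleate desaturase FAD2 (AT3G12120), fell from 78.2 and 80.1 FPKM to 2.38 and 8.89, and LOC108218638, a match of the phosphoethanolamine methyltransferase AT3G18000, from 264 and 295 to 45.6 and 44.3. LOC108217753, a match of the acyltransferase gene AT3G51520, rose from 0.89 and 2.39 FPKM to 34.6 and 28.0.

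Some genes had fragments on one side only. Of the 687 genes higher in E, 63 had no fragment in either CT library, and of the 2258 lower in E, 205 had none in either E library. Mean FPKM was below 0.5 for 7 of the 63 in phloem F, 46 in xylem G and 43 in phloem H. For the 205 these numbers were 159 in F, 85 in G and 83 in H. LOC108216715, a match of a plasma membrane proton pump (AT3G47950), is such a gene, at 3.15 and 3.65 FPKM in E, 0 and 7.28 in F and 0 in both libraries of G and of H. It was at least 14.9-fold higher in E than in CT against a floor of 3 fragments per library. Each of the 63 and of the 205 genes passed the filter on low values only through the side that had fragments. How many of all tested genes lay below 0.5 FPKM in F, G or H was not counted. The numbers for these groups thus have no background to be set against.

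The most changed genes with neither a name nor a match in the study's lists were LOC108227836 and LOC108200979, which rose, and LOC108198643 and LOC108211939, which fell. LOC108227836 was at 0.12 and 0.29 FPKM in CT, 279 and 281 in E, 124 and 231 in F, 0.40 and 0.10 in G and 0 in both in H, the same groups as MYB7. LOC108200979 was at 0.81 and 0.37 FPKM in CT and 299 and 331 in E, and at 342 and 439 in H. LOC108211939 was at 119.8 and 177 FPKM in CT, 0.22 and 0.23 in E, 0.36 and 0.11 in F and 124 and 90.8 in G. LOC108198643 was at 89.4 and 198 FPKM in CT and 0.21 and 0 in E, and its call was lost in 1 of the 6 other fits with all 4 libraries (highest adjusted p = 0.066). Of the 354 loci tested that lie outside the annotation, 45 were higher in E and 48 lower, beside 3.54% higher and 11.6% lower over all tested genes.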
